A study of Rattus norvegicus with 15 samples.

Results

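Insulin-like growth factors (IGFs), their binding proteins, their receptors and the first proteins inside the cell that these receptors use were followed in rat gastrocnemius muscle by the 10 genes Igf1, Igf2, Igfbp3, Igfbp4, Igfbp5, Igf1r, Insr, Irs1, Irs2 and Gsk3b. Each probe set whose only gene symbol is one of these names was taken, which gave 22 of 31042 probe sets for 10 of 14217 genes. The rule used the gene names and no measured value, and the genes were proposed with earlier results of these data known. The question was whether the muscle's own IGF and insulin signalling transcripts differed after a low-protein diet that began after weaning, and whether they still differed after a later feeding period. Serum IGF-1, which the study also measured, is not used here.

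All animals were male Wistar rats, bought at 3.5 weeks of age. The CN rats were fed 15% casein and the LP rats 8% casein in a diet matched for calories, and both were sampled after 4 weeks, with 4 arrays in each group. The CN-R and LP-R rats had the same 4 weeks of 15% or 8% casein and were sampled on day 84, with 3 and 4 arrays. For the weeks between, the sample labels keep these rats on their earlier diets, whereas the methods of the study put both groups on the 15% casein diet, so that what LP-R rats ate in that time is not settled. All rats were fasted for 16 h before sampling. CN-R replicate 4 is a control by its title and a restricted rat by its treatment field. It was kept in CN-R. Late changes of single probe sets that it moved by over 1.5 times, or whose call or separation of groups depended on it, are also given without it or with it counted as LP-R. Medians and mean signals of lists of marker genes are given with it in CN-R only. The 3 CN-R arrays are numbered 1, 2 and 4. Each array holds the muscle RNA of 1 rat, hybridized to an Affymetrix GeneChip for the rat genome.

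IGF1 and IGF2 are secreted growth factors that drive growth and protein synthesis in muscle, where IGF1 from the liver arrives with the blood and IGF1 made by the muscle acts locally. The binding proteins IGFBP3, IGFBP4 and IGFBP5 hold IGFs outside the cell and can either restrain or prolong their action. IGF1R and the insulin receptor are tyrosine kinases that phosphorylate the adaptors IRS1 and IRS2, through which PI3 kinase activates Akt. Akt in turn inhibits the kinase GSK3β, a brake on glycogen synthesis and on translation, and keeps FoxO transcription factors out of the nucleus.

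Each value below is a log2 signal of a probe set, and a change is the restricted group mean minus the control group mean on that scale, given with its standard error (SE). FARMS, the summary method used by the authors, pulls the values of probes without a shared pattern to a near constant. A probe set is called varying here when its SD over the arrays of a comparison was above 0.01. Rank products, the test named in the methods of the study, called a probe set higher or lower where the pfp, the share of false positives estimated from permutations, was at most 0.05. limma was run as a second test, with Benjamini-Hochberg adjusted p over all probe sets. The exact permutation p of single probe sets are two-sided and not adjusted, and the smallest that they can give is 0.0286, for 4 against 4 arrays as for 3 against 4. Where a late array is left out or CN-R replicate 4 is counted as LP-R, there are fewer splits and the smallest p is higher. Such p are not on the same footing as those of all 7 late arrays. Early and late arrays were summarized apart, so their log2 signals were not compared with each other. Levels of different probe sets were not compared either, since each has its own probe affinity.

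Among the 22 probe sets, rank products called 3 higher in LP than in CN, from Igf1 and Igfbp3, and 3 lower, from Igfbp5 and Gsk3b. The promoters of these 4 genes are printed here, because rank products called their probe sets in opposite directions in the same comparison. They are RefSeq windows of assembly GRCr8 from 250 bases before to 50 bases after an annotated start, read 5′ to 3′ on the strand of the gene. Such a window was at hand for 9 of the 10 genes. Irs2 is the gene without one. The capitals mark E-boxes, CANNTG, a motif that reads the same on both strands and that 72.1% of 33469 promoter windows hold. The Igf1 window lies at chr7:24172282-24172581 on the plus strand, the Igfbp3 window at chr14:86277895-86278194, the Igfbp5 window at chr9:81914138-81914437 and the Gsk3b window at chr11:76153200-76153499, the last 3 on the minus strand. The windows of Igfbp3 and Igfbp5 lie at the outer start of their genes. Those of Igf1 (gene from 24169608 to 24249446) and Gsk3b (from 76004502 to 76154665) lie inside the gene, so their letters are those of an inner start.
Igf1: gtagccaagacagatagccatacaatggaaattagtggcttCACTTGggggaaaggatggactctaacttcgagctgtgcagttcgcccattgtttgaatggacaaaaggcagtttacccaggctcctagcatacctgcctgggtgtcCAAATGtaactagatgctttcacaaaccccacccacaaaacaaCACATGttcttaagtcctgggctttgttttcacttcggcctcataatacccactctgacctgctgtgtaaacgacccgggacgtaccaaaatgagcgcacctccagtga
Igfbp3: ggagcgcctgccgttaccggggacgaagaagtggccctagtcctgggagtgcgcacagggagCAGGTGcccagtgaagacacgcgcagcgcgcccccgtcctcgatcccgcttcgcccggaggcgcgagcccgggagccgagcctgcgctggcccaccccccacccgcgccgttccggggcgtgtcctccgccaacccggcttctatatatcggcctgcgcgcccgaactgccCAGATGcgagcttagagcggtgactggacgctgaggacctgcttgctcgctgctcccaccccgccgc
Igfbp5: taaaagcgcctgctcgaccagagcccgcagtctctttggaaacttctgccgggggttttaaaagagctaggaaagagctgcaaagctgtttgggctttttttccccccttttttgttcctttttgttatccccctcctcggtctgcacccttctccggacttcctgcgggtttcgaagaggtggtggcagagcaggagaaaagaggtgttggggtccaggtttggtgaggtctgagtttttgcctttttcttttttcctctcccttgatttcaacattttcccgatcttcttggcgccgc
Gsk3b: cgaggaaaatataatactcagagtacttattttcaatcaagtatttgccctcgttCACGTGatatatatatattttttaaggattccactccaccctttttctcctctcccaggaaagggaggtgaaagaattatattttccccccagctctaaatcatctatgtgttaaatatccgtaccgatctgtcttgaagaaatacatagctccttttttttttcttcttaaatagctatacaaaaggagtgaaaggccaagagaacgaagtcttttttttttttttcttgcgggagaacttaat
The Igf1 window holds 3 E-boxes, the Igfbp3 window 2, the Gsk3b window 1 and the Igfbp5 window 0. Their GC content was 48.3% for Igf1, 71.7% for Igfbp3, 50.7% for Igfbp5 and 34.7% for Gsk3b. None of the 4 windows holds the FoxO letters GTAAACA (3.78% of all windows), the STAT letters TTCNNNGAA (8.87%), the GC box GGGCGG (33.1%), the TATA box TATAAA (14.2%) or the cAMP response element TGACGTCA (1.83%) on either strand. Among the other genes, the Insr window holds GTAAACA once, in its reverse form. E-boxes number 3 in the Insr window, 2 in that of Igfbp4 and 1 each in those of Igf1r and Irs1. The 2 windows of Igf2 hold 0 and 1. No probe set of these other genes was called in LP.

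In the comparison of LP with CN, 13 of the 22 probe sets varied (59.1%, against 12.8% of all probe sets), from 7 of the 10 genes. The 3 probe sets called higher make up 13.6% of the 22, and over all probe sets rank products called 1.65% higher. The 3 called lower also make up 13.6%, against 1.62% of all probe sets. Every probe set that was called anywhere on the array was a varying one, so the share among varying probe sets is the nearer comparison. There it was 23.1% of the genes' varying probe sets in each direction, against 12.9% of all varying probe sets called higher and 12.7% called lower. limma called 0 of the 22, and 0% of all probe sets. The smallest limma adjusted p was 0.612 among the 22 and 0.0742 over the array, and an unadjusted p under 0.05 was found for 2 of the 22 and for 7.54% of all probe sets. One of these 2 is a probe set of Insr at the near constant, and the other is that of Gsk3b. In no varying probe set of these genes were the LP and CN arrays free of overlap, while 7.9% of all varying probe sets had groups that did not overlap. Means were higher in LP for 7 of the 13 and lower for 6. The median change was 0.02, the same to 2 decimals as over all varying probe sets.

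**Figure D1:**
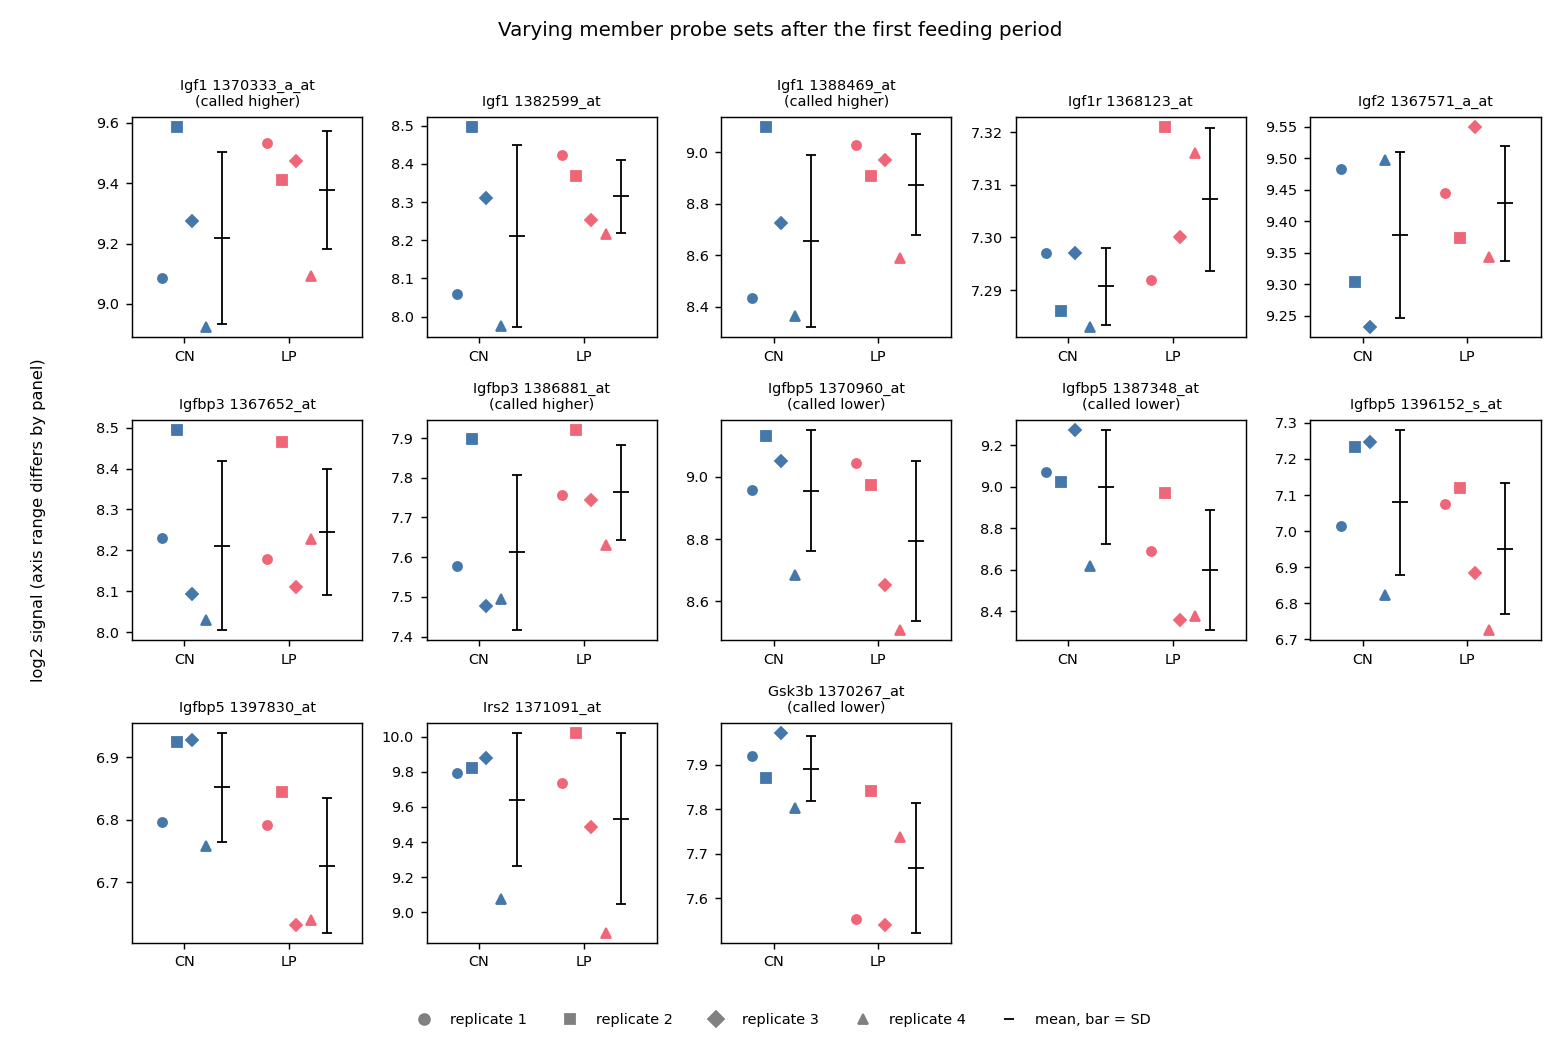
The 13 varying probe sets of the genes after 4 weeks on the diets. Each point is the log2 signal of 1 array (4 CN in blue and 4 LP in red, with the replicate number as the marker shape), the black mark is the group mean and the bar its SD, and the axis range differs by panel. The groups overlap in every panel, including the 6 that rank products called.

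Igf1, the main growth factor of the system, was higher on average in LP. The probe set 1388469_at read 8.43, 9.10, 8.73 and 8.36 in CN and 9.03, 8.91, 8.97 and 8.59 in LP. LP replicates 1, 2 and 3 lay above every CN array except CN replicate 2, which held the highest value of all 8. The change was 0.22 (SE 0.19), or 1.16-fold, with a pfp of 0.0282 in favour of a higher level (exact permutation p = 0.286, limma adjusted p = 0.833). Without CN replicate 2 the change was 0.37, and without CN replicate 4 it was 0.12. The call was lost without any one of 5 arrays, namely CN replicates 1 and 4 and LP replicates 1, 2 and 3.

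A second probe set of Igf1, 1370333_a_at, had the same pattern. Its log2 signal was 9.08, 9.59, 9.27 and 8.92 in CN and 9.53, 9.41, 9.47 and 9.09 in LP. The change was 0.16 (SE 0.17), with a pfp of 0.0491, just inside the threshold (exact permutation p = 0.371), and the call was lost in 6 of the 8 fits that leave out 1 array, all but those without CN replicate 2 or 3. The third, 1382599_at, read 8.06, 8.50, 8.31 and 7.98 in CN and 8.42, 8.37, 8.25 and 8.22 in LP, a change of 0.10 (SE 0.13) that was not called (pfp 0.128), though without CN replicate 2 it was 0.20 and called higher. All of them placed CN replicate 2 highest and CN replicate 4 lowest. Pearson's r between pairs of these probe sets over the 8 arrays was 0.91 to 0.99, as a description, since they read the same RNA. The mean over the 3 probe sets was higher by 0.16 in LP (exact permutation p = 0.343), so that the probe sets shared the direction and the spread between rats exceeded the difference between diets.

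Igf2, the second ligand and an imprinted fetal growth factor, had 1 varying probe set of 4. Its log2 signal, by 1367571_a_at, was 9.48, 9.30, 9.23 and 9.50 in CN and 9.44, 9.37, 9.55 and 9.34 in LP. The LP arrays lay almost within the CN range, and the change of 0.05 (SE 0.08) was not called (pfp 0.302, exact permutation p = 0.543). The other 3 probe sets of Igf2 were near constants at 6.22 to 6.48.

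Igfbp3, the binding protein that carries most IGF in the blood, was called higher in LP by 1 of its 2 probe sets. By 1386881_at the log2 signal was 7.58, 7.90, 7.48 and 7.49 in CN and 7.76, 7.92, 7.74 and 7.63 in LP. Each LP array exceeded 3 of the 4 CN arrays, and again CN replicate 2 was the exception among the controls. The change was 0.15 (SE 0.12), or 1.11-fold, with a pfp of 0.0378 (exact permutation p = 0.257, limma adjusted p = 0.80). It was 0.25 without CN replicate 2, and the call was lost in 7 of the 8 fits that leave out 1 array, all but that one. The other probe set, 1367652_at, read 8.23, 8.50, 8.09 and 8.03 in CN and 8.18, 8.46, 8.11 and 8.23 in LP. Its change of 0.03 (SE 0.13) was not called and turned to −0.04 without LP replicate 2. The 2 probe sets of Igfbp3 thus differ in what they show of LP, though both put replicate 2 highest in each group.

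Igfbp4, a binding protein that mostly restrains IGF, has 1 probe set, which was a near constant at 7.35 in all 15 arrays.

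Igfbp5, the main binding protein made by muscle cells, was called lower in LP by 2 of its 5 probe sets. The probe set 1387348_at had the largest change of all 22 in this comparison. It read 9.07, 9.03, 9.28 and 8.62 in CN and 8.69, 8.97, 8.36 and 8.38 in LP. All LP arrays lay under 3 of the CN arrays, and CN replicate 4 was the low control. The change was −0.40 (SE 0.20), or 1.32-fold lower, with a pfp of 0.00286 (exact permutation p = 0.114, limma adjusted p = 0.693). It ran from −0.53 to −0.31 without each array in turn, and the call was kept in all 8 of these fits. No other called probe set of these genes kept its call in every one. When rank products was run on varying probe sets alone, the call of 1387348_at was lost as well, since 0 of the 22 were called.

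The second called probe set of Igfbp5, 1370960_at, read 8.96, 9.13, 9.05 and 8.68 in CN and 9.04, 8.97, 8.65 and 8.51 in LP. The change was −0.16 (SE 0.16), with a pfp of 0.0467 (exact permutation p = 0.286), and the call was lost without any of the 4 CN arrays or without LP replicate 3 or 4. Probe sets 1396152_s_at and 1397830_at were lower on average by similar amounts, −0.13 (SE 0.14, pfp 0.098) and −0.13 (SE 0.07, pfp 0.0694), and were not called, although each was called without LP replicate 2. The fifth, 1387347_at, was a near constant at 7.10. Pearson's r between the 4 varying probe sets was 0.84 to 0.95 over the 8 arrays. Their mean was lower by 0.20 in LP (exact permutation p = 0.200).

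**Figure D2:**
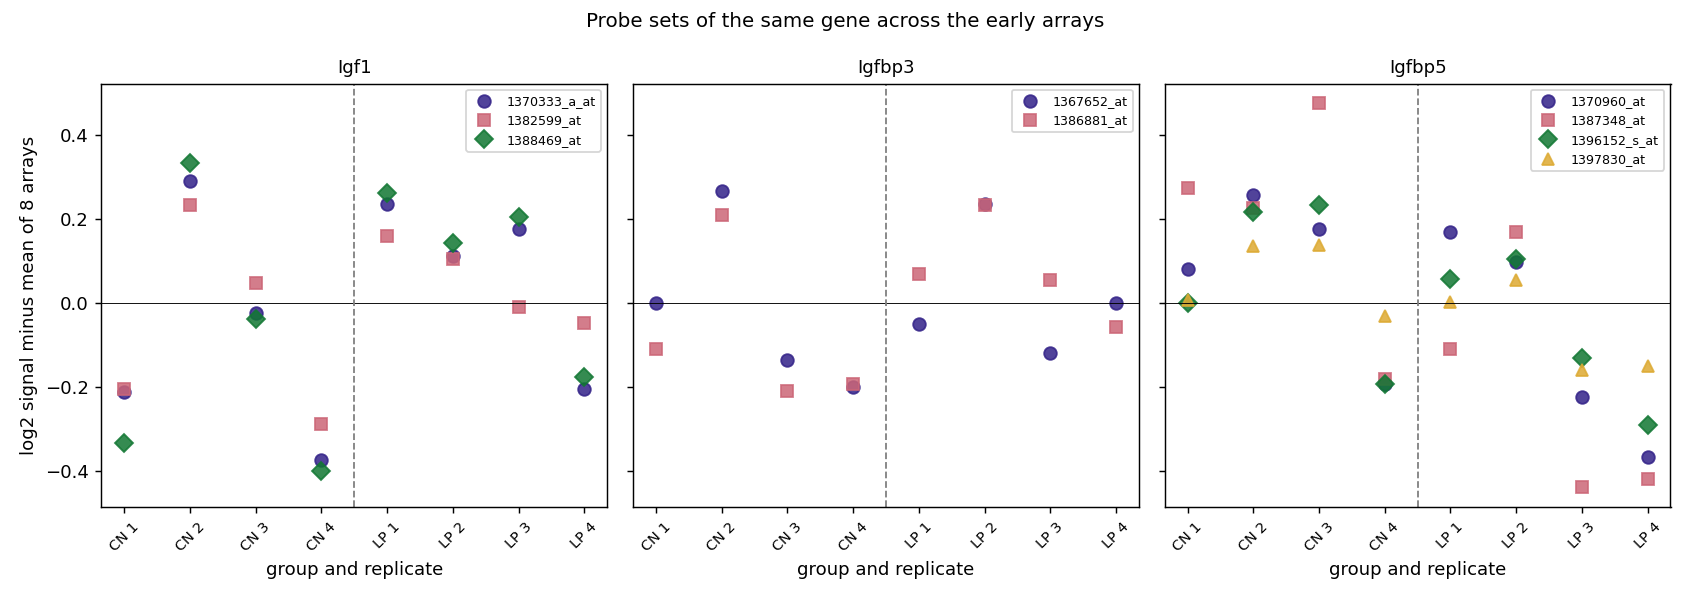
Log2 signal of each varying probe set of Igf1 (3), Igfbp3 (2) and Igfbp5 (4) in the 8 early arrays, minus the probe set's own mean over these arrays. Each marker colour and shape is 1 probe set, and the dashed line parts CN from LP. CN replicate 2 is the highest array of Igf1 and CN replicate 4 the lowest, and the arrays LP replicate 3 and LP replicate 4 are the lowest for 1387348_at and 1397830_at of Igfbp5.

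The receptors showed little. Igf1r, the receptor for both IGFs, has 2 probe sets, of which 1392492_at was a near constant at 7.48. The other, 1368123_at, was 7.30, 7.29, 7.30 and 7.28 in CN and 7.29, 7.32, 7.30 and 7.32 in LP, which is just above the limit for varying. Its change of 0.02 (SE 0.01) was not called (pfp 0.231, exact permutation p = 0.114). Both probe sets of Insr, the insulin receptor, were near constants at 6.60 and 7.74, and so was that of the adaptor Irs1 at 6.97. A near constant from FARMS gives no size for a difference between groups.

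Irs2, an adaptor of both receptors and a known target of FoxO, varied most between rats of a group. Its single probe set, 1371091_at, read 9.79, 9.82, 9.88 and 9.08 in CN and 9.74, 10.02, 9.49 and 8.88 in LP. Replicate 4 was the lowest array in both groups. The change of −0.11 (SE 0.31) was not called (pfp 0.0817, exact permutation p = 0.686). It was −0.30 without CN replicate 4 and 0.11 without LP replicate 4, so its direction depends on a single array. Without LP replicate 2 it was −0.27 and called lower.

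Gsk3b, the kinase that Akt inhibits, was lower in LP. Its single probe set, 1370267_at, read 7.92, 7.87, 7.97 and 7.80 in CN and 7.56, 7.84, 7.54 and 7.74 in LP. Only LP replicate 2 reached into the range of the controls. The change was −0.22 (SE 0.08), or 1.17-fold lower, with a pfp of 0.0131. It had the smallest exact permutation p among the varying probe sets of these genes, 0.0571, and a limma p of 0.0299 that became 0.636 after adjustment. Without each array in turn the change ran from −0.28 to −0.18. The call was lost without CN replicate 1, 2 or 3.

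In the later arrays fewer of the probe sets varied and rank products called fewer, as was also so over the whole array. Between LP-R and CN-R, 6 of the 22 probe sets varied (27.3%, against 9.99% of all), from 5 of the 10 genes. Rank products called 0 of the 22 higher and 1 lower, that of Irs2, while over all probe sets 0.345% were called higher and 0.168% lower. Among varying probe sets, 16.7% of those of these genes were called lower, which is that 1 of 6, and the shares over the array were 3.45% higher and 1.68% lower. These late shares depend on how the values are permuted: when each probe set was centred on its mean first, an alternative chosen after seeing the data, 64 probe sets were called higher and 139 lower in place of 107 and 52. The call of Irs2 was the same under both. limma called 0 of the 22 and 0% of all probe sets. The smallest limma adjusted p was 0.969 among the 22 and 0.539 over the array, and 3 of the 22 had an unadjusted p under 0.05, all 3 of them near constants, against 5.04% of all probe sets. All 6 varying probe sets had a lower mean in LP-R, and their median change was −0.09, beside −0.02 over all varying probe sets. All 6 were also lower without CN-R replicate 4 and with that array counted as LP-R. The pattern did depend on LP-R replicate 4. Without that array the means of Igf2 (0.02), Igfbp5 1387348_at (0.04) and Gsk3b (0.05) were higher in LP-R. The 6 probe sets stem from 5 genes measured in the same 7 rats and are not independent of each other. Several lists of cell type markers had lower means in LP-R as well, namely all 11 varying probe sets of the slow fiber list (median change −0.15), all 8 of the fibroblast list (−0.11), all 3 of the Schwann cell list (−0.125) and both of the adipocyte list (−0.27). Their part in the values of these genes was not tested.

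**Figure D3:**
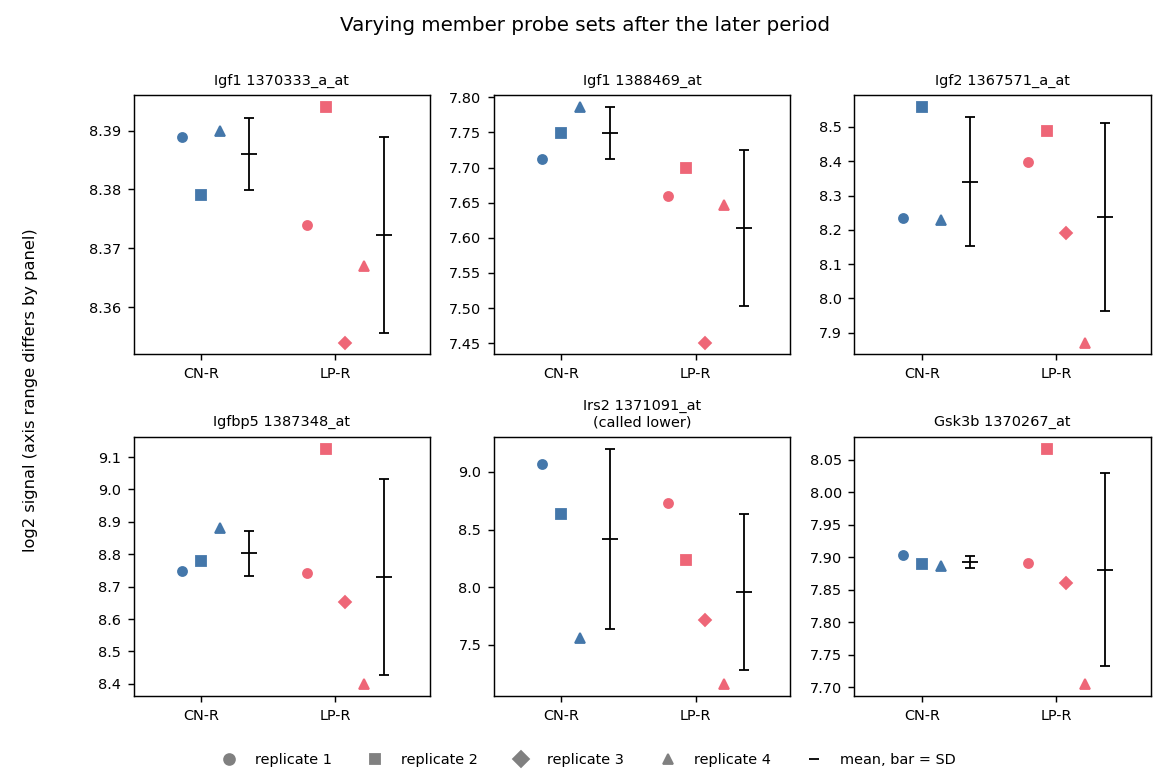
The 6 varying probe sets of the genes in the late arrays. Each point is the log2 signal of 1 array (3 CN-R in blue and 4 LP-R in red, with the replicate number as the marker shape), the black mark is the group mean and the bar its SD, and the axis range differs by panel. Only in Igf1 1388469_at do the groups not overlap, and Irs2 has the widest spread.

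Irs2 read 9.07, 8.64 and 7.56 in CN-R and 8.73, 8.24, 7.72 and 7.16 in LP-R. The low control was CN-R replicate 4, the array whose labels disagree, and the groups overlapped over most of their range. The change of −0.46 (SE 0.56), or 1.37-fold lower, was smaller than its SE. Rank products called it at a pfp of 0.0451, while the exact permutation p was 0.457 and the limma adjusted p 0.999. Leaving out CN-R replicate 4 gave −0.89, and moving that array to LP-R, as its treatment field has it, gave −0.97. Without CN-R replicate 1 the change was −0.13 and without LP-R replicate 4 it was −0.19. The call was lost without CN-R replicate 1, 2 or 4 and without LP-R replicate 4.

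Igf1 was the one varying gene whose late groups did not overlap. By 1388469_at it read 7.71, 7.75 and 7.79 in CN-R and 7.66, 7.70, 7.45 and 7.65 in LP-R. Groups that do not overlap were found in 3.84% of all varying probe sets of this comparison. The change of −0.13 (SE 0.06) was not called by rank products (pfp 0.107), with an exact permutation p of 0.0571. It was −0.08 without LP-R replicate 3, the lowest array. CN-R replicate 4 held the highest control value. Without it the change was −0.12 (exact permutation p = 0.267) and the groups still did not overlap, and with it counted as LP-R the change was −0.08 (exact permutation p = 0.429) and they did. By 1370333_a_at the values were 8.39, 8.38 and 8.39 in CN-R and 8.37, 8.39, 8.35 and 8.37 in LP-R, a change of −0.0138 (SE 0.01). With CN-R replicate 4 counted as LP-R the change of this probe set was −0.0085. The third probe set, 1382599_at, was a near constant at 7.0.

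Igf2 read 8.23, 8.56 and 8.23 in CN-R and 8.40, 8.49, 8.19 and 7.87 in LP-R by 1367571_a_at. The change of −0.10 (SE 0.18) was not called and became 0.02 without LP-R replicate 4 and −0.16 without CN-R replicate 4. Igfbp5, the gene with the largest early change, read 8.75, 8.78 and 8.88 in CN-R and 8.74, 9.13, 8.65 and 8.40 in LP-R by 1387348_at. Its late change was −0.07 (SE 0.16, pfp 0.241), and the LP-R arrays lay on both sides of the controls. It was −0.03 without CN-R replicate 4 and −0.0036 with that array counted as LP-R. Gsk3b read 7.90, 7.89 and 7.89 in CN-R and 7.89, 8.07, 7.86 and 7.71 in LP-R, a change of −0.01 (SE 0.07, pfp 0.922). For both Igfbp5 and Gsk3b the controls lay close together, with an SD of 0.07 and 0.01, and the LP-R rats spread more widely, with an SD of 0.30 and 0.15. The remaining probe sets, including both of Igfbp3, both of Igf1r, both of Insr and those of Igfbp4 and Irs1, were near constants in the late arrays.

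Whether a gene's change differed between the early and the late comparison was tested for the 6 probe sets that varied in both. The largest differences were those of Igf1 1388469_at, from 0.22 early to −0.13 late (exact permutation p = 0.104), Irs2, from −0.11 to −0.46 (p = 0.582), and Igfbp5 1387348_at, from −0.40 to −0.07 (p = 0.276). Gsk3b went from −0.22 to −0.01 (exact permutation p = 0.131). After Benjamini-Hochberg adjustment over the 6 tests the p ranged from 0.394 to 0.582, so that no difference between the early and the late change passed. Without CN-R replicate 4 the difference of Irs2 went from −0.35 to −0.78 (exact permutation p = 0.275), which made it the widest of the 6, while that of Igf1 1388469_at went from −0.35 to −0.33 (exact permutation p = 0.128) and that of Igfbp5 from 0.33 to 0.37 (exact permutation p = 0.255).

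**Figure D4:**
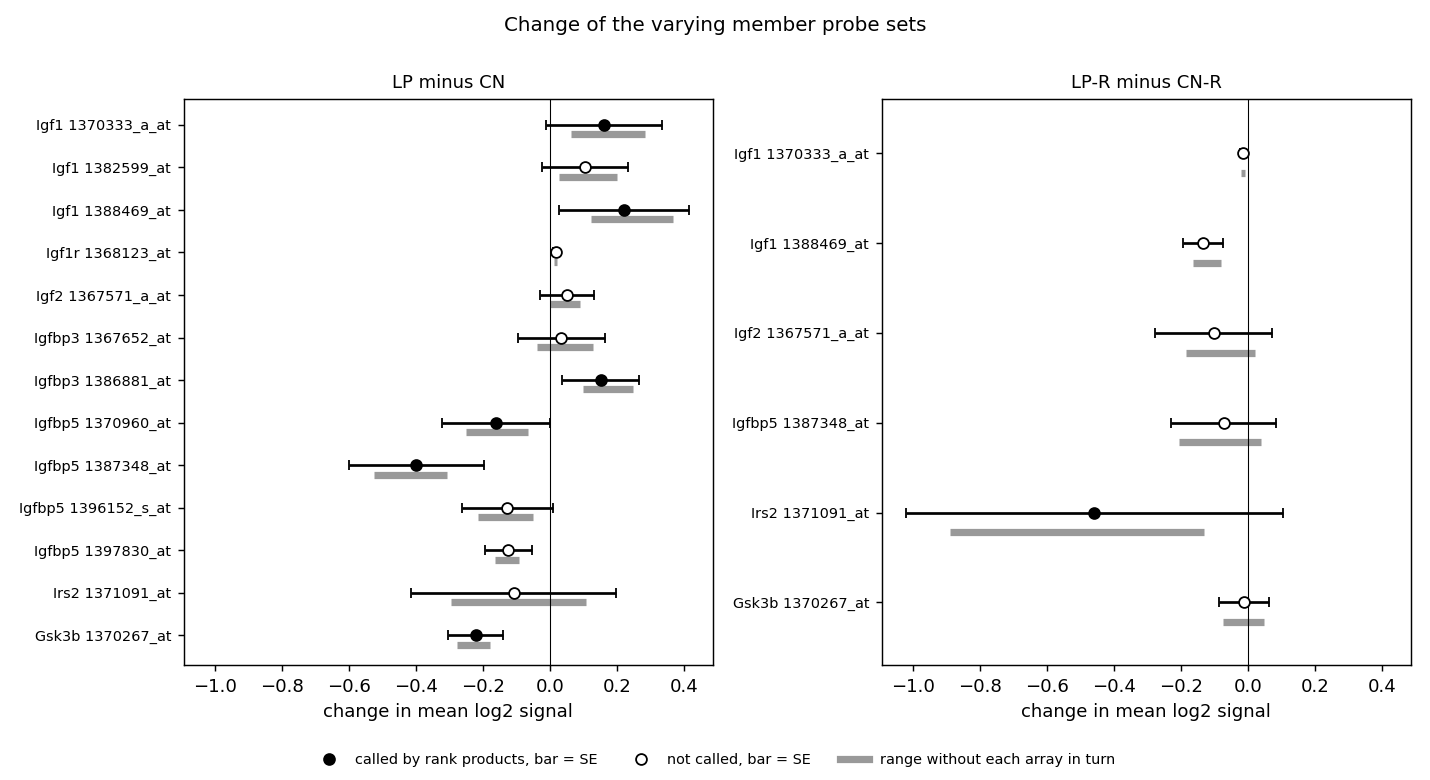
Change in mean log2 signal of each varying probe set, LP minus CN on the left (13 probe sets, 4 against 4 arrays) and LP-R minus CN-R on the right (6 probe sets, 4 against 3). Circles are changes with their SE as bars, filled where rank products called them, and grey bars span the changes found without each array in turn. Igfbp5 1387348_at at −0.40 and Gsk3b at −0.22 are the largest early changes next to Igf1 1388469_at at 0.22, and Irs2 has the widest late bar.

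The rest of the pathway was read from lists of 91 other genes, of which 78 had a probe set (134 in all). In LP, rank products called 4 of these genes higher by 4 probe sets (2.99% of the 134) and 4 lower by 5 probe sets (3.73%), beside the 1.65% and 1.62% over the array. Of their 37 varying probe sets, 10.8% were called higher and 13.5% lower, which is near the 12.9% and 12.7% of all varying probe sets. None was called by limma. Among the other ligands, receptors and IGF binding proteins no gene was called in either comparison. Several of these genes, such as Ins1, Ins2, Igfbp1, Igfbp2 and Igfals, were near constants in both comparisons and could hardly be called, while Igfbp6 and Igfbp7 varied.

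Among the adaptors, Gab1, a scaffold that recruits PI3 kinase, was higher in LP by 0.16 (SE 0.08, pfp 0.0327). Foxo1, the transcription factor that Akt holds back and that raises Irs2 during fasting, was lower in LP by rank products. It read 7.71, 7.91, 8.22 and 8.23 in CN and 7.34, 7.78, 7.87 and 8.00 in LP, a change of −0.27 (SE 0.19, pfp 0.0137, limma adjusted p = 0.786). In the mTOR branch, which controls translation and growth below Akt, 2 of 18 measured genes were called higher and 2 lower. Deptor, an inhibitor of mTOR, read 10.34, 10.34, 10.18 and 10.34 in CN and 10.56, 10.55, 10.56 and 10.40 in LP by 1374758_at (change 0.22, SE 0.06, pfp 0.0102), and these groups did not overlap. Its other probe set, 1393615_at, went the opposite way by −0.20 (SE 0.16) and was not called. Rictor, a subunit of the mTOR complex that phosphorylates Akt, was higher by 0.13 (SE 0.04, pfp 0.0284), and its groups did not overlap either, with 8.33 to 8.47 in CN and 8.50 to 8.58 in LP. Groups without overlap were found in 7.9% of all varying probe sets. The limma adjusted p was 0.582 for Deptor 1374758_at and for Rictor. Ddit4, a stress-induced inhibitor of mTOR, was called lower with a change of −0.72 (SE 0.70), and Eif4ebp1, a repressor of translation, with one of −0.24 (SE 0.14, pfp 0.00732). For Ddit4 the CN arrays ran from 8.43 to 10.32 and the LP arrays from 7.64 to 10.13, so that the spread between rats was wider than the change. Spry1, a feedback inhibitor in the Ras branch, was higher in LP at 8.23, 8.11, 8.14 and 8.16 against 7.98, 8.07, 7.96 and 8.00 in CN (change 0.16, SE 0.04, pfp 0.0215, limma adjusted p = 0.556).

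Growth hormone raises Igf1 through STAT5, and Cish, a STAT5 target and feedback inhibitor, was the 1 gene called among 5 listed for this input. Socs2, which belongs to this input but was listed with the adaptors, changed by 0.08 (SE 0.09) in LP. It was not called, and it was a near constant in the late arrays. Cish read 7.19, 8.46, 6.60 and 6.59 in CN and 6.44, 6.70, 6.57 and 6.53 in LP by 1378586_at. CN replicates 1 and 2 were the high arrays, and the change of −0.65 (SE 0.44) was called lower (pfp 0.0013). In the late arrays it read 7.44, 6.99 and 6.99 in CN-R and 8.65, 8.25, 7.49 and 6.91 in LP-R and was called higher, by 0.69 (SE 0.42). The probe set 1388233_at of Cish was called in the same directions, at −0.23 (SE 0.17) and 0.24 (SE 0.18). Without CN-R replicate 4 the late change was 0.62 for 1378586_at, still called, and 0.19 for 1388233_at, no longer called. With that array counted as LP-R they were 0.45, called, and 0.12, not called. The difference between the early and the late change of Cish did not pass, with an exact permutation p of 0.0588 for 1378586_at and 0.0857 for 1388233_at, both 0.343 after adjustment over the 24 pathway probe sets other than those of the 10 genes that varied in both comparisons. The smallest p among these 24 was that of Spry1, 0.00408, or 0.098 after adjustment, for changes of 0.16 early and −0.04 late. CN replicate 2 was the highest early array for Cish and for all 3 probe sets of Igf1. In LP-R, 2 of the 78 genes were called higher by 3 probe sets and 0 lower. These make up 2.24% of the 134 probe sets and 9.68% of the 31 that varied, beside 0.345% and 3.45% over the array. The second gene was the adaptor Sh2b2, which read 7.11, 7.35 and 6.84 in CN-R and 7.25, 7.13, 7.34 and 7.38 in LP-R. Its change of 0.17 (SE 0.16, pfp 0.043) rested on CN-R replicate 4, the lowest array. It was 0.04 and not called without that array, and −0.04 with it counted as LP-R.

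These samples are whole muscle, so that fewer cells of a type and less RNA per cell cannot be told apart. The muscle label was checked with the fiber genes Ckm, Acta1, Myh4 and Tnnt3, whose brightest probe sets read 13.40 to 14.07 in CN and LP and were near constants. Of the 5 probe sets of this list 1 varied in CN and LP, with a change of −0.15, and was not called. Cells other than fibers also make IGF and its binding proteins. Among 7 measured endothelial genes 3 were called higher in LP (Kdr, Emcn and Cldn5), where 12.9% of all varying probe sets were called higher. Of this list's 6 varying probe sets, 4 averaged above CN, while those of Vwf (−0.007) and Flt1 (−0.008) averaged slightly below it. The median change was 0.15. The mean signal of these 6 probe sets ran from 8.18 to 8.39 in CN and from 8.27 to 8.57 in LP. Among 8 fibroblast genes 2 were called lower (Col1a1 and Col1a2), with list means of 11.31 to 11.64 in CN and 11.36 to 11.47 in LP. The 4 varying probe sets of these collagens were all lower on average, and the 6 of Col3a1, Dcn, Lum, Dpt and Fbn1 were all higher, by 0.03 to 0.08, so that the list's median change was 0.04. Among 6 adipocyte genes Adipoq was called higher, with list means of 7.99 to 8.51 in CN and 8.02 to 8.76 in LP. No gene was called in LP among the listed markers of muscle fibers, slow fibers, macrophages, satellite cells, red cells or Schwann cells. In LP-R, the slow fiber gene Myh7 and the adipocyte gene Cfd were called lower, at −0.39 and −0.34. Both calls were lost without CN-R replicate 4 (−0.50 and −0.40) and with it counted as LP-R. List means ran from 11.32 to 11.55 in CN-R and 11.14 to 11.54 in LP-R for slow fibers, from 7.26 to 7.53 and 6.99 to 7.28 for adipocytes, and from 10.17 to 10.46 and 10.04 to 10.37 for fibroblasts, among which no gene was called. The part of these cell types in the values of Igf1, Igfbp3 and Igfbp5 was not tested.

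For 4 of the genes, those with the most similar pattern were sought among the probe sets with 1 gene symbol that varied in both array sets (1665 candidates). They were ranked by the smaller of Pearson's r over the 8 early and over the 7 late arrays. These r are descriptions across arrays that include both diets, and the highest of many. Irs2 was closest to Csrp1 (0.93 and 0.95), a LIM domain protein, Nr4a1 (0.92 and 0.97), an immediate early nuclear receptor, and Id1 (0.89 and 0.88), an inhibitor of helix-loop-helix factors. Gsk3b was closest to Usp7 (0.97 and 0.97), a deubiquitinase, Prpf4b (0.96 and 0.97), a splicing kinase, and Ash1l (0.95 and 0.95), a histone methyltransferase. Igf1, by 1370333_a_at, had looser matches in Mlf1 (0.76 and 0.75), Tcea3 (0.84 and 0.70) and Igfbp7 (0.78 and 0.69). Igf2 was closest to Irak1 (0.83 and 0.77), Pnkd (0.74 and 0.70) and Bnip3l (0.68 and 0.89).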

How the data were processed

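The authors hybridized total RNA of 1 rat to each array and summarized the probes with FARMS, and the deposited values are log2 signals per probe set. No further normalization was applied here. Control probe sets (57) were left out of 31099. Of the 31042 tested, 20826 carry 1 gene symbol in the platform annotation. The genes and gene lists were chosen with earlier results of these data known. Groups followed the sample titles. Samples are separate rats, 1 array each, and their small number bounds the precision of each value. The methods of the study state that rats for the arrays were chosen for a weight near their group's mean. They were thus not drawn at random from each group.

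Rank products ran over all pairs of arrays with values shuffled within arrays 100 times (seed 1) in Python 3.11.15 with numpy 2.4.6. Each comparison was fitted by itself in limma 3.58.1 (R 4.3.3, default prior). Both were also run on simulated data with independent noise and changes set larger than those of the 10 genes in the main fits. That run does not bear on calls at smaller changes. The exact tests enumerated every split of the arrays, and the test of the difference of changes all 2450 joint splits. Of other pathway genes, those called by rank products were named. Genes of similar pattern were the 3 with the highest r. Constants of 94.7% of 26041 probe sets that did not vary in either array set differed by over 0.01 between the sets. Alternatives were a replicate block, quantile normalization, median centring, filters on dim or non-varying probe sets, array weights, another prior, the other label of CN-R replicate 4 and the omission of each array. For listed genes other than the 10, the other label of CN-R replicate 4 and its omission were added after seeing the data. Methylation arrays were not analysed here.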

Additional observations from a re-analysis of the deposited data

Results flagged for a closer look

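In 1 of 32 groups of 4 arrays looked at, 1 array lay far from the others: Irs2 in CN replicate 4, at a log2 signal of 9.08, while the other CN arrays were at 9.79, 9.82 and 9.88. By chance about 1 in 20 such groups would hold an array of this kind. Without it the change of Irs2 from CN to LP was −0.30 in place of −0.11. The array was also the lowest of its group for Igf1 and for the called probe sets of Igfbp5, at 8.36 (1388469_at), 8.62 (1387348_at) and 8.68 (1370960_at).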

How the results depend on the processing

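Calls of the 22 probe sets depended on which probe sets and arrays entered. In LP against CN, 6 were called, against 5 with quantile normalization (not Igf1 1370333_a_at), 3 without the dimmest 25% of probe sets (659 over the array in place of 1014, each probe set counted once), 0 among varying probe sets alone (33 over the array), and 1 to 6 without each array in turn (and 530 to 894 over the array; 1 without CN replicate 1, 2 without CN replicate 4 or LP replicate 3, 3 without CN replicate 3 or LP replicate 1 or 4). In LP-R against CN-R, 1 was called, against 0 without the dimmest 25% (104 over the array), 0 among varying probe sets alone (7) and 0 to 1 without each array (0 without CN-R replicate 1, 2 or 4 or LP-R replicate 4). With CN-R replicate 4 counted as LP-R, 344 probe sets were called in place of 159, 332 of them higher. limma called 0 of the 22 under every alternative run. Over the array it called 1 late probe set among varying ones alone and 1 without LP-R replicate 3.

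Changes that turned were all uncalled: Igfbp3 1367652_at (−0.01 without CN replicate 3, −0.03 without CN replicate 4, −0.0395 without LP replicate 2, up to 0.128), Irs2 early (0.107 without LP replicate 4, down to −0.297), and in LP-R Igf2 (0.01 without CN-R replicate 2, 0.0191 without LP-R replicate 4, down to −0.186), Igfbp5 1387348_at (0.0374 without LP-R replicate 4, down to −0.205) and Gsk3b (0.0472 without LP-R replicate 4, down to −0.0735, and 0.00040 after quantile normalization). The causes were not tested.

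Replicate numbers are shared between groups but do not pair the rats by the labels, and deviations of same-numbered arrays correlated at −0.03 to 0.55 early and 0.04 to 0.22 late. With a replicate block, rank products called 7 early (Igfbp5 1397830_at in addition) and 1 late, and 692 and 501 probe sets over the array early, 44 and 134 late. limma with the block gave Irs2 a late change of −0.38 (SE 0.02, unadjusted p 0.00094, adjusted p 0.80) over the 3 numbers that both groups hold.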
